A study of Drosophila melanogaster with 4 samples.

Results

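mir-281-1 and mir-281-2 are paralogous microRNA (miRNA) hairpins that lie side by side in the fly genome. They were chosen from these same data because their arms gave fewer reads with every Nibbler construct than in the knockout cells, so the differences from nbrKO below are a description and not a test. The 2 hairpins are 2 of 219 hairpin genes in the table, and their rows are 4 of 495. Joined by mature arm they make 3 of 261 arms: miR-281-1-5p, miR-281-2-5p and a miR-281-3p shared by both hairpins. All 3 passed both read minimums used below, for levels a mean over the libraries of at least 100 reads (123 arms) and for shares at least 100 reads in every library (114 arms).

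Small RNAs of 18 to 30 nt were sequenced from Drosophila melanogaster S2 cells, a line of embryonic origin, in which CRISPR-Cas9 had removed the exonuclease Nibbler (Nbr). In every one of the 4 libraries the cells were nbrKO. NbrCTD-GWp, NbrCTD and Nbr(wt) libraries came from such cells stably transfected with the named construct under the Act5C driver, and the nbrKO library from cells with no construct named. CTD and GWp are not explained in the labels, which also do not say whether the knockout line is 1 clone. No library of cells with native Nbr or with an empty construct was analysed here. Each group held 1 library, so no difference has a replicate check, and every interval is an exact 95% interval that covers counting error only. A difference between a construct and nbrKO therefore cannot be told apart from a difference between 2 cell lines or 2 libraries.

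A miRNA hairpin is cut to a duplex of a 5p and a 3p strand, and one strand is kept by Argonaute while the other is mostly degraded. Nbr is a 3′-to-5′ exonuclease that shortens the 3′ ends of miRNAs held by Argonaute1, and nucleotides not encoded in the genome can be added to the same ends as tails. miR-281 is conserved among insects. It has been described as a midgut miRNA in the mosquito Aedes albopictus and as a regulator of the ecdysone receptor in the silkworm Bombyx mori.

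In the Release 6 annotation both hairpins lie on the minus strand of chromosome arm 2R, mir-281-1 at 12170373 to 12170462 (90 bases) and mir-281-2 at 12170153 to 12170244 (92 bases), with 128 bases between them. The table's own coordinates are from another build that is not named in the sources used here, and its spacing of the 5′ ends of the arms (45, 175 and 44 bases) equals that of the annotation. Both hairpins sit in an intron of 2 of the 3 annotated transcripts of Oda, the ornithine decarboxylase antizyme gene that restrains polyamine synthesis, on the same strand and downstream of the coding start. They lie outside the remaining transcript, upstream of its start. Both also lie within an exon of the 2 transcripts of the non-coding gene asRNA:CR46194, again on the same strand. The annotated mature arms are 23 bases long, except miR-281-2-5p with 22.

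**Figure D1:**
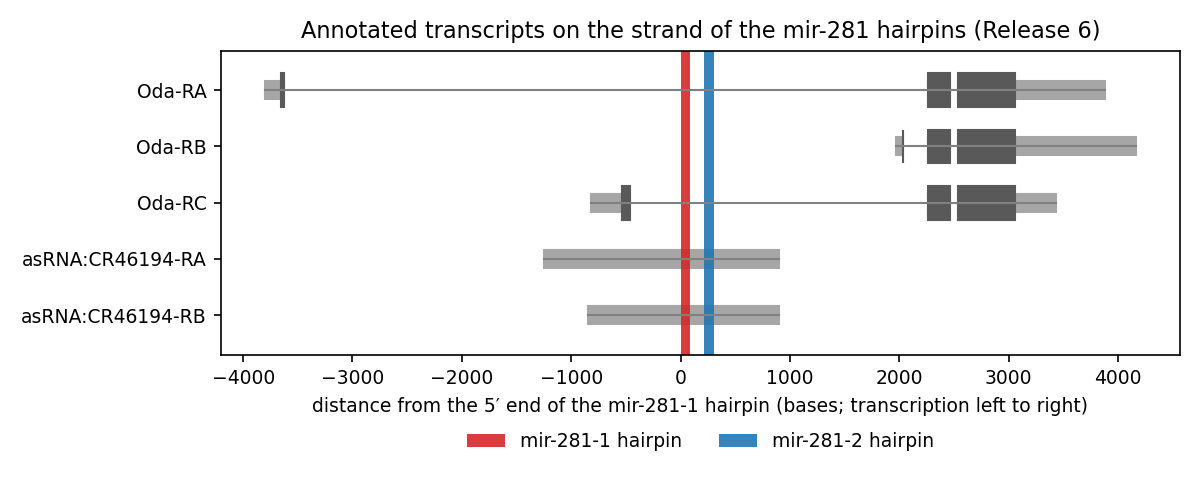
Annotated transcripts on the strand of the mir-281 hairpins, by distance in bases from the 5′ end of the mir-281-1 hairpin, with transcription left to right. Dark boxes are coding exons, light boxes other exonic sequence, thin lines introns, and the coloured bars the hairpins, which fall in an intron of Oda-RA and Oda-RC and within asRNA:CR46194.

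The table holds reads of the leading 5′ isoform of each arm, split by the authors into a GM column, read here as reads that match the genome throughout, and a PM column, read as reads with an untemplated 3′ tail. The 3p values of the loci were equal in 8 of 8 cases, and 2 of them ended in 0.5 of a read. The 3p reads were thus divided equally between the hairpins, cannot be assigned to one, and were summed. The 5p arms start with different 7-base stretches, which become equal over 6 letters after a shift of 1 base. No other row of the table carried the start of any mir-281 arm.

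All 3 arms were lower with every construct than in nbrKO, to between 0.190 and 0.377 of the knockout level. Levels are in miRNA RPM, for which the total of a library is its reads in the 261 arms, and in which 1 read is worth 0.0509 to 0.0782. miR-281-1-5p was read 567 times with NbrCTD-GWp, 357 times with NbrCTD, 430 times with Nbr(wt) and 1472 times in nbrKO. Its level was 32.9 miRNA RPM with NbrCTD-GWp (interval 30.2 to 35.7), 24.7 with NbrCTD (22.2 to 27.4), 21.9 with Nbr(wt) (19.9 to 24.1) and 115 in nbrKO (109 to 121). The construct libraries lay well below nbrKO, and among them NbrCTD-GWp stood above the other two, whose intervals overlapped.

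miR-281-2-5p gave most of the 5p reads, 2328 with NbrCTD-GWp, 1748 with NbrCTD, 2023 with Nbr(wt) and 5973 in nbrKO. Its level was 135 miRNA RPM with NbrCTD-GWp (129 to 140), 121 with NbrCTD (115 to 127), 103 with Nbr(wt) (98.6 to 108) and 467 in nbrKO (456 to 479). These 4 intervals did not overlap. With median of ratios the log2 fold of miR-281-2-5p against nbrKO was -1.58 with NbrCTD and -1.59 with Nbr(wt), nearly equal but in the same order. For miR-281-1-5p that scaling turned the order, to -1.83 with NbrCTD and -1.77 with Nbr(wt). The trimmed mean did not, with -1.67 and -1.74 for miR-281-1-5p, and neither did the authors' RPM.

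miR-281-3p was read 2099 times with NbrCTD-GWp, 2105 times with NbrCTD, 1976 times with Nbr(wt) and 4934 times in nbrKO. Its level was 122 miRNA RPM with NbrCTD-GWp (116 to 127), 146 with NbrCTD (139 to 152), 101 with Nbr(wt) (96.2 to 105) and 386 in nbrKO (375 to 397). Here NbrCTD was the highest construct library, in place of NbrCTD-GWp, and Nbr(wt) was again the lowest. In bulk RNA, fewer cells with a miRNA and less of it per cell cannot be told apart.

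**Figure D2:**
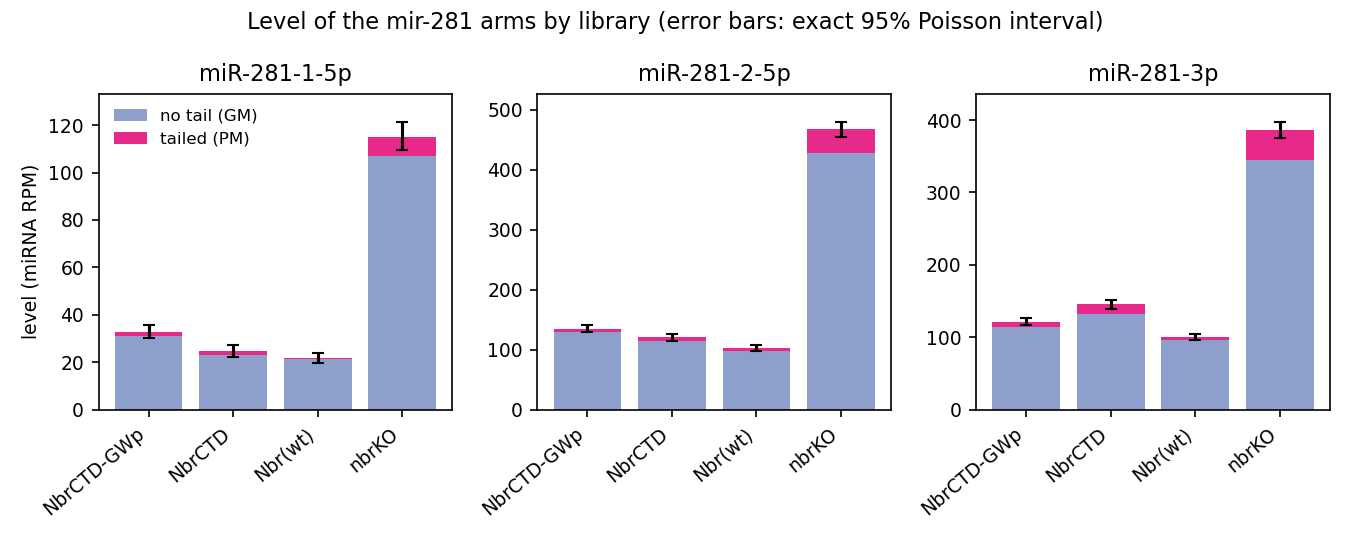
Level of each mir-281 arm in miRNA RPM by library, as bars that add reads with no tail (GM) and tailed reads (PM), with an exact 95% Poisson interval on the sum. Each panel has its own axis. In every panel the nbrKO bar is the tallest, and the tailed part is a small share of each bar.

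On the log2(miRNA RPM + 1) scale, the differences from nbrKO of miR-281-1-5p were -1.78 with NbrCTD-GWp, -2.18 with NbrCTD and -2.34 with Nbr(wt). Those of miR-281-2-5p were -1.79, -1.94 and -2.17 in the same order of constructs, and those of miR-281-3p were -1.66, -1.40 and -1.93. The median over the 123 arms was -0.21 with NbrCTD-GWp, -0.11 with NbrCTD and -0.38 with Nbr(wt), so each mir-281 arm lay more than 1 log2 unit below it. An arm was called lower where it was at least 2-fold lower and the intervals did not overlap. By that rule 3 of 3 arms were lower with each construct, where 17.1% of the 123 arms were lower with NbrCTD-GWp, 15.4% with NbrCTD and 25.2% with Nbr(wt). Arms called higher made up 8.13%, 8.94% and 6.5% with the same constructs, and none of the mir-281 arms was among them. Since the hairpins were picked for this contrast, nothing is read from these counts.

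The choice of total moved these values without turning one. Before the pseudocount, which makes the change of single arms differ slightly, the authors' RPM raised log2 ratios to nbrKO relative to miRNA RPM by 0.25 with NbrCTD-GWp, 0.04 with NbrCTD and 0.18 with Nbr(wt), median-of-ratios scaling by 0.41, 0.36 and 0.59, and trimmed-mean scaling by 0.41, 0.52 and 0.63. Under the last, miR-281-3p with NbrCTD stood at -0.88 and was no longer 2-fold lower. The sum of the arms with Nbr(wt), -2.10 in miRNA RPM, was -1.51 with median of ratios and -1.47 with the trimmed mean.

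**Figure D3:**
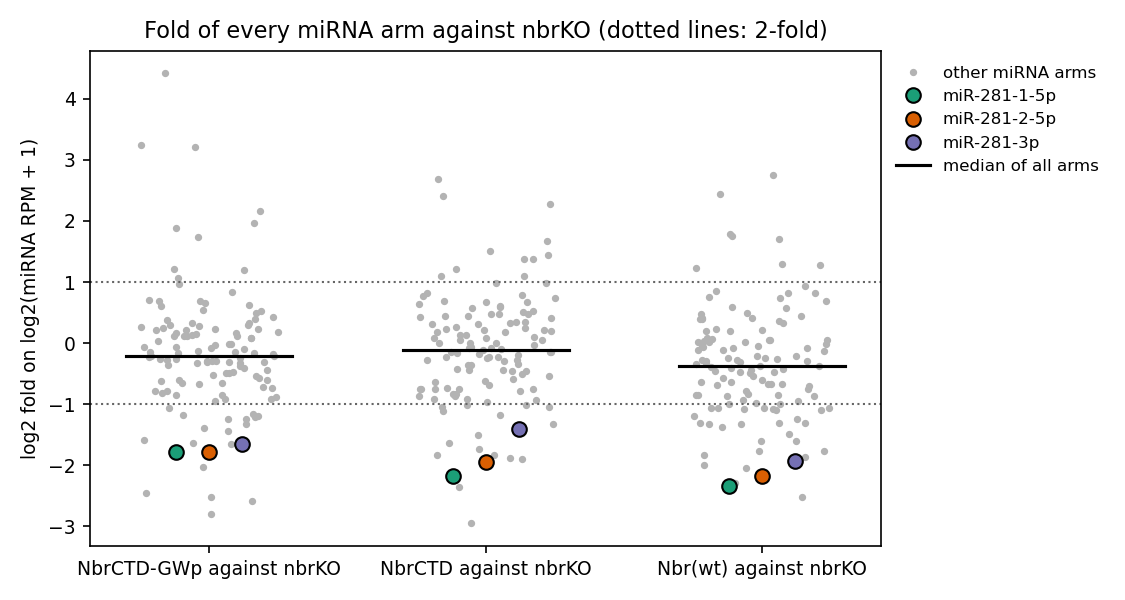
Log2 fold against nbrKO on the log2(miRNA RPM + 1) scale for the 123 arms past the minimum for levels, by construct, with horizontal scatter added for legibility. Coloured points are the mir-281 arms, between -1.40 and -2.34, black lines the medians of all arms, and dotted lines a 2-fold difference.

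Ranked from the lowest fold up among the 123 arms, miR-281-1-5p was 7 with NbrCTD-GWp, 3 with NbrCTD and 2 with Nbr(wt). miR-281-2-5p was 6, 4 and 4 in the same order, and miR-281-3p was 9, 12 and 7. None of them was a major miRNA of these cells. By reads, miR-281-2-5p ranked 76, 77 and 76 of 261 with NbrCTD-GWp, NbrCTD and Nbr(wt), and 61 in nbrKO.

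For each arm and construct, the ratio to nbrKO was lower for tailed reads than for reads with no tail, with overlapping intervals for miR-281-1-5p with NbrCTD-GWp and NbrCTD and for miR-281-3p with NbrCTD. The tailed reads of miR-281-3p with Nbr(wt) were 0.103 of their nbrKO level (0.0806 to 0.130), whereas its reads with no tail were 0.279 (0.264 to 0.295). With NbrCTD-GWp its ratios were 0.176 for tailed reads and 0.331 for reads with no tail, and with NbrCTD they were 0.335 (0.282 to 0.395) and 0.382 (0.362 to 0.403). Tailed reads of miR-281-2-5p were at 0.139, 0.180 and 0.130 of nbrKO with NbrCTD-GWp, NbrCTD and Nbr(wt), beside 0.302, 0.266 and 0.229 for reads with no tail. The level of the untailed form was thus also lower with each construct.

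The tailed share, the tailed reads over all reads of the listed isoform, does not depend on the library total. For miR-281-3p it was 5.86% with NbrCTD-GWp (4.89 to 6.95), 9.31% with NbrCTD (8.10 to 10.6), 4.15% with Nbr(wt) (3.31 to 5.13) and 10.5% in nbrKO (9.66 to 11.4). NbrCTD overlapped nbrKO, while NbrCTD-GWp and Nbr(wt) lay below both. For miR-281-2-5p it was 4.04% with NbrCTD-GWp (3.28 to 4.92), 5.84% with NbrCTD (4.78 to 7.04), 4.94% with Nbr(wt) (4.04 to 5.98) and 8.37% in nbrKO (7.68 to 9.10). Every construct library lay below nbrKO for this arm.

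miR-281-1-5p had the fewest reads and the widest intervals. Its tailed share was 4.76% with NbrCTD-GWp (3.16 to 6.85), 5.88% with NbrCTD (3.68 to 8.85), 3.02% with Nbr(wt) (1.62 to 5.11) and 7.27% in nbrKO (5.995 to 8.72). Of these, Nbr(wt) lay below nbrKO with no overlap, and a difference was not detectable at this depth for the other two constructs. With NbrCTD-GWp 2 of 3 arms were lower in tailed share, with NbrCTD 1 of 3 and with Nbr(wt) 3 of 3, where 44.7%, 32.5% and 48.2% of the 114 arms were. The mir-281 arms were tailed more than most: the median of the 114 arms was 2.25% with NbrCTD-GWp, 2.73% with NbrCTD, 2.05% with Nbr(wt) and 3.01% in nbrKO. Read lengths were not analysed here, so trimming itself was not measured.

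**Figure D4:**
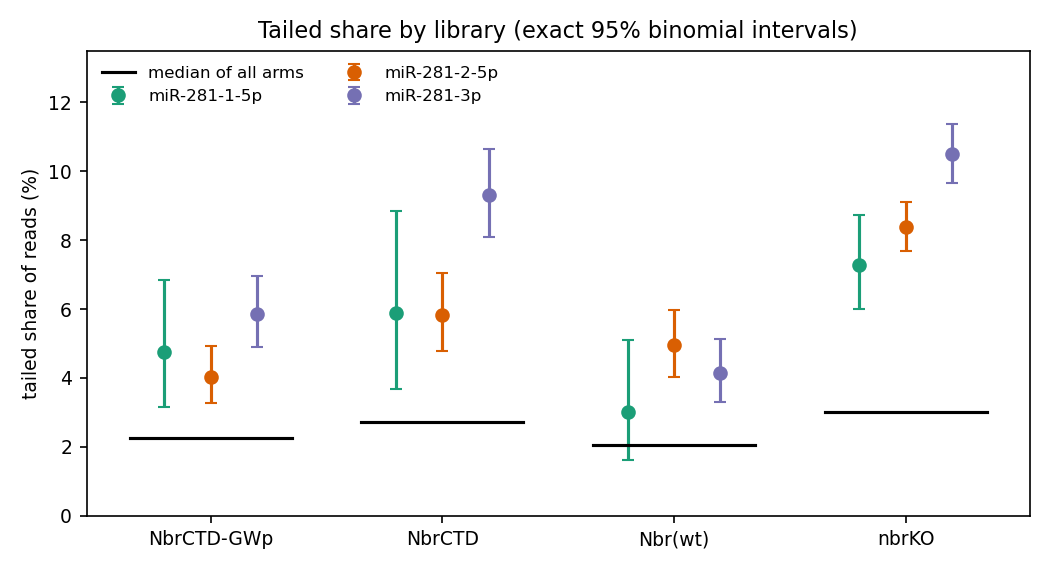
Tailed share in percent of the reads of each mir-281 arm by library, with exact 95% binomial intervals, and black lines for the median of the 114 arms. The nbrKO shares, 7.27% to 10.5%, are the highest for each arm, and miR-281-3p with NbrCTD stays near its nbrKO value.

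The 5′ ends of the arms differed as well. Of all reads of miR-281-3p, the listed 5′ isoform held 72.7% with NbrCTD-GWp (71.0 to 74.3), 74.3% with NbrCTD (72.6 to 75.9), 74.1% with Nbr(wt) (72.4 to 75.8) and 65.6% in nbrKO (64.5 to 66.7), from the fraction the authors deposited. The construct libraries overlapped one another and lay above nbrKO. In nbrKO, 0 of the 60 measured 3p arms and 4 of all 114 arms had a lower share than miR-281-3p. With NbrCTD-GWp, NbrCTD and Nbr(wt), 4, 3 and 3 of the 3p arms had a lower share than miR-281-3p. Its difference from nbrKO ranked 4, 3 and 5 among the rises of the 114 arms with NbrCTD-GWp, NbrCTD and Nbr(wt).

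Reads of miR-281-3p with other 5′ ends, which the table implies but does not list, numbered 789 with NbrCTD-GWp, 730 with NbrCTD, 689 with Nbr(wt) and 2588 in nbrKO. They were at 0.226, 0.249 and 0.173 of the nbrKO level with the constructs in that order, below the ratios of the listed isoform (0.315, 0.377 and 0.261). The relative difference was thus larger for the other 5′ isoforms together than for the listed one.

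The 5p arms did not share this. For miR-281-1-5p the listed isoform held 88.9% with NbrCTD-GWp (86.2 to 91.2), 88.6% with NbrCTD (85.1 to 91.5), 91.3% with Nbr(wt) (88.4 to 93.7) and 93.9% in nbrKO (92.6 to 95.1), lower than nbrKO with NbrCTD-GWp and NbrCTD. For miR-281-2-5p it held between 95.6% and 97.1% in the 4 libraries, with every construct's interval overlapping that of nbrKO. A higher share was thus called for 1 of 3 arms with each construct, where 17.5%, 11.4% and 19.3% of the 114 arms were higher with NbrCTD-GWp, NbrCTD and Nbr(wt). A lower share was called for 1 of 3 arms with NbrCTD-GWp and with NbrCTD, where 20.2% and 22.8% of the arms were lower, and for 0 of 3 with Nbr(wt), where 17.5% were.

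The balance of the strands depended on which 5′ isoforms were counted. Over both hairpins and the listed isoforms, 5p reads made up 58.0% with NbrCTD-GWp (56.6 to 59.3), 50.0% with NbrCTD (48.5 to 51.5), 55.4% with Nbr(wt) (53.9 to 56.9) and 60.1% in nbrKO (59.3 to 61.0). NbrCTD and Nbr(wt) lay below nbrKO, and NbrCTD-GWp overlapped it narrowly. Among the 44 hairpins with both arms measured, 38.6% had a lower 5p share with NbrCTD-GWp, 59.1% with NbrCTD and 50% with Nbr(wt).

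With the arm totals implied by the deposited share, the 5p share was 51.2% with NbrCTD-GWp (50.0 to 52.5), 44.0% with NbrCTD (42.7 to 45.4), 49.0% with Nbr(wt) (47.7 to 50.4) and 50.8% in nbrKO (50.0 to 51.6). The NbrCTD library then stayed below nbrKO, the Nbr(wt) library overlapped it, and the difference with NbrCTD-GWp changed its sign, to 0.41 points above nbrKO. These totals were an alternative chosen after seeing the data.

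**Figure D5:**
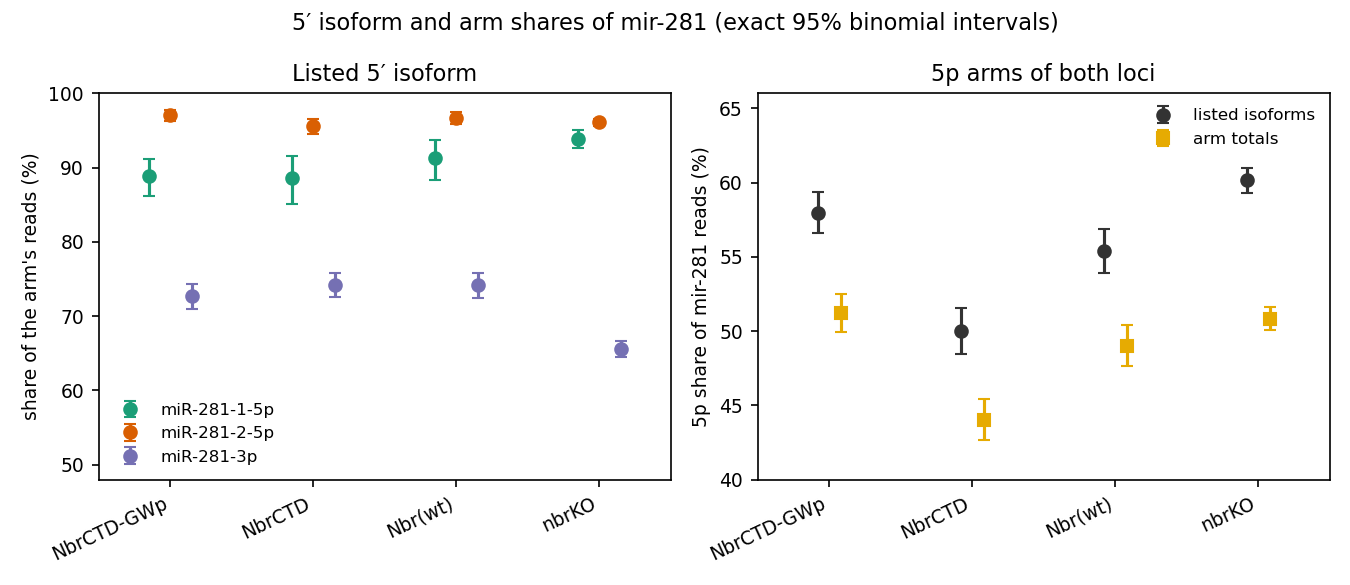
Left, percent of the reads of each arm that carry the listed 5′ end, by library. Right, share in percent of mir-281 reads that came from the 5p arms of both loci, from listed isoforms and from arm totals. Bars are exact 95% binomial intervals and both axes are cut. miR-281-3p is lowest in nbrKO, and NbrCTD has the lowest 5p share by both counts.

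By locus, with the 3p reads halved, 5p reads made up 35.1% of mir-281-1 with NbrCTD-GWp, 25.3% with NbrCTD, 30.3% with Nbr(wt) and 37.4% in nbrKO. At mir-281-2 they made up 68.9%, 62.4%, 67.2% and 70.8% in the same libraries. The authors' TRUE mark, set on 1 arm of a hairpin, accordingly fell on the 3p arm of mir-281-1 and on the 5p arm of mir-281-2. That contrast depends on the equal division of the 3p reads, whose true split between the hairpins is not known.

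The 5p reads are listed apart for each locus, but they are not a measure of the whole output of a hairpin. mir-281-1 gave 19.6% of the 5p reads with NbrCTD-GWp (18.2 to 21.1), 17.0% with NbrCTD (15.4 to 18.6), 17.5% with Nbr(wt) (16.0 to 19.1) and 19.8% in nbrKO (18.9 to 20.7). There were thus 4.11 reads of miR-281-2-5p for each of miR-281-1-5p with NbrCTD-GWp, 4.90 with NbrCTD, 4.70 with Nbr(wt) and 4.06 in nbrKO. NbrCTD lay narrowly below nbrKO and the other two constructs overlapped it. With arm totals the share was 18.1% with NbrCTD (16.5 to 19.7) and 20.1% in nbrKO (19.3 to 21.1), which overlapped.

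The constructs can be set against each other without the nbrKO library. The summed level of the 3 arms was 289 miRNA RPM with NbrCTD-GWp (281.4 to 298), 291 with NbrCTD (283 to 300) and 226 with Nbr(wt) (219 to 232). NbrCTD-GWp was at 0.994 of NbrCTD (0.954 to 1.04), at 1.28 of Nbr(wt) (1.23 to 1.34), and NbrCTD was at 1.29 of Nbr(wt) (1.24 to 1.35). With the authors' RPM the log2 difference of NbrCTD-GWp from NbrCTD was 0.20, and with median of ratios 0.04, in place of -0.01. The trimmed mean was not run for pairs of constructs. Under it the summed folds against nbrKO were -1.33 with NbrCTD-GWp and -1.21 with NbrCTD, which is the opposite order. No arm differed 2-fold in any of the 3 pairs. In the pair of NbrCTD-GWp and NbrCTD, 4.07% of the 123 arms were higher and 3.25% lower. In either pair with Nbr(wt), 6.5% were higher and 0.813% lower.

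The tails of miR-281-3p differed between constructs. Its share with NbrCTD-GWp differed from that with NbrCTD by -3.45 points, with no overlap, where 35.1% of the 114 arms were lower. Its share with NbrCTD was 5.16 points above that with Nbr(wt), again with no overlap, where 39.5% of the arms were higher. For the pair of NbrCTD-GWp and Nbr(wt) the difference was 1.71 points and the intervals overlapped. The 5p arms overlapped in all 3 pairs. The 5p share of both hairpins was higher with NbrCTD-GWp than with NbrCTD, by 7.97 points, where 43.2% of the 44 hairpins were higher and 31.8% lower. It was lower with NbrCTD than with Nbr(wt), a difference of -5.38 points, where 45.5% were lower and 40.9% higher. Both differences kept intervals apart with arm totals.

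Arms with a pattern like that of mir-281 were sought by the Euclidean distance between centred log2(miRNA RPM + 1) levels over the 4 libraries, among the 123 arms. The nearest arm to miR-281-1-5p was miR-281-2-5p, at 0.21, where the median over all pairs of arms was 1.003. Outside the locus, miR-1012-5p, from a mirtron on 3R, was nearest to both 5p arms (0.44 and 0.27), and miR-33-3p, on 3L, to miR-281-3p (0.19). miR-1012-5p stood at 35.6 miRNA RPM with NbrCTD-GWp, 38.8 with NbrCTD, 35.0 with Nbr(wt) and 148 in nbrKO. miR-33-3p stood at 3822, 4063, 3379 and 11497 in the same libraries.

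miR-282-3p followed them for each of the 3 arms. miR-263a-5p and miR-4939-3p completed the nearest 5 of both 5p arms, and miR-2b-1-5p and miR-988-5p those of miR-281-3p. A profile of 4 points, each 1 library, gives a likeness and no more.

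The nearest other hairpin of the table, mir-988, lies 11240 bases away and in an intron of Prp8, a core spliceosome gene. miR-988-5p stood at 631 miRNA RPM with NbrCTD-GWp, 661 with NbrCTD, 355 with Nbr(wt) and 1212 in nbrKO. miR-988-3p stood at 3277, 3843, 2542 and 3017 in the same libraries. The 5p arm of the neighbour was thus, in miRNA RPM, lowest with Nbr(wt) and highest in nbrKO, as the mir-281 arms were, and the 3p arm was not highest in nbrKO.

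Other lists were counted by the same rules. Of 10 miRNAs recalled as Nbr substrates, 8 passed the minimum for levels, and 1 was lower with each construct. Higher levels were called for 1 with NbrCTD-GWp, 0 with NbrCTD and 1 with Nbr(wt). Over the 123 arms, 17.1%, 15.4% and 25.2% were lower and 8.13%, 8.94% and 6.5% higher with these constructs. Their median log2 differences were -0.23, -0.61 and -0.60. In tailed share 5 of 7 were lower and 1 higher with NbrCTD-GWp, 4 lower with NbrCTD and 5 lower with Nbr(wt), where 44.7%, 32.5% and 48.2% of the 114 arms were lower and, with NbrCTD-GWp, 7.02% higher. miR-34-5p, tied to ageing in flies, stood at 13171 miRNA RPM with NbrCTD-GWp, 7813 with NbrCTD, 12230 with Nbr(wt) and 14742 in nbrKO, with tailed shares of 3.92%, 7.32%, 3.70% and 9.58%.

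Of 24 arms made by more than 1 hairpin or a near copy, the class to which mir-281 belongs, 17 passed the minimum. With NbrCTD-GWp 2 of them were lower, with NbrCTD 1 and with Nbr(wt) 2, and the higher ones numbered 4, 3 and 3, against lower shares of 17.1%, 15.4% and 25.2% and higher shares of 8.13%, 8.94% and 6.5% over the 123 arms. Their median log2 differences were 0.08, 0.20 and -0.02. Reads of such arms can be split between copies, so their single values are uncertain. miR-276a-3p, one of the most read, stood at 25305 miRNA RPM with NbrCTD-GWp, 24794 with NbrCTD, 24863 with Nbr(wt) and 21569 in nbrKO.

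Of 16 miRNAs listed as common in S2 cells, 16 passed the minimum for levels, where 123 of the 261 arms did. The list was chosen with results of these data known, so this is no check of the S2 label. bantam-3p, which promotes growth, stood at 339045 miRNA RPM with NbrCTD-GWp, 306587 with NbrCTD, 359931 with Nbr(wt) and 357335 in nbrKO. Of these 16, 1 was lower and 2 higher with NbrCTD-GWp, where 17.1% and 8.13% of the 123 arms were. With NbrCTD 1 was lower and 1 higher (15.4% and 8.94% of all arms), and with Nbr(wt) 2 were lower and 1 higher (25.2% and 6.5%). Of 19 marker arms of muscle, neurons, late larva to adult, early embryo, ovary and testis, 14 were measured. They summed to 142 miRNA RPM with NbrCTD-GWp, 155 with NbrCTD, 170 with Nbr(wt) and 241 in nbrKO. In miRNA RPM the sum was thus lower with each construct, but it was not recomputed with the other scalings. With Nbr(wt) the order depends on the scaling, because median of ratios and the trimmed mean raise log2 ratios by 0.59 and 0.63. Either shift is larger than the shortfall of the marker sum with Nbr(wt) in miRNA RPM. Single markers differed, and let-7-5p had 16, 46, 42 and 26 reads in the same libraries. No measured marker was at 0, the muscle marker miR-133-3p had 2 to 6 reads in a library, and the ovary marker miR-318-3p gave most of the sum. Their part in the mir-281 result was not tested. The totals behind the authors' RPM were 24005045 to 32488012 reads a library, of which miRNA rows held 54.7% to 65.0%.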

How the data were processed

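The deposited table gives, per the file headers, 2 columns of RPM for each library (GM and PM), a fraction for the share of an arm's reads in the listed 5′ isoform, and the authors' TRUE or FALSE mark. Tools listed in the submitters' processing notes are cutadapt 1.2.1 and HTSeq 0.9.1. The build and the aligner were not named there. RPM values were divided by the worth of 1 read to give reads, whole within 0.01 read for 91.7% to 95.9% of values, and arm totals are reads over the deposited fraction. No count model was fitted. The 4 type columns were not used. Reads in 261 joined arms were the total for miRNA RPM. Folds used a pseudocount of 1, log2 odds ratios 0.5 added reads. Intervals are exact Poisson for levels, Clopper-Pearson for shares and conditional binomial for ratios of levels, rounded to whole reads. Scripts ran in Python 3.11.15 with numpy 2.4.6, pandas 2.3.3, scipy 1.17.1 and matplotlib 3.10.9. The call rules were tested on simulated data with counting error only, so differences between libraries or cell lines were not covered.

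The hairpins, the lists and the calls were chosen with earlier results of these data known. Named arms are every mir-281 arm, the 5 nearest to each, and single examples picked from the list members with the most reads. Some marker arms are also named as examples, and the neighbouring hairpin, added by position after the data were seen. With 1 library per group no p-value was computed. Alternatives were other scalings, pseudocounts of 0.1 and 10, reads with no tail alone, read minimums and arm totals. The labels do not say whether PCR duplicates were removed.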

Additional observations from a re-analysis of the deposited data

How the results depend on the processing

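Each of the 3 arms stayed below nbrKO with each construct in 63 of 63 recomputed folds, and at least 2-fold lower in 62, with a range of -2.39 to -0.88. The exception was miR-281-3p with NbrCTD under trimmed-mean scaling. All these folds recompute the same libraries in which the arms were chosen, so they show the effect of processing only. The log2 fold of the summed arms, -1.74 with NbrCTD-GWp, -1.73 with NbrCTD and -2.10 with Nbr(wt), moved outside its counting interval as follows. With the authors' RPM it was -1.49 with NbrCTD-GWp and -1.91 with Nbr(wt). With median-of-ratios scaling it was -1.33, -1.37 and -1.51 for NbrCTD-GWp, NbrCTD and Nbr(wt), and with the trimmed mean -1.33, -1.21 and -1.47. With reads with no tail it was -1.67 with NbrCTD-GWp and -2.03 with Nbr(wt), and with arm totals -1.80 and -2.17. The 5p share with arm totals differed from nbrKO by 0.41 points with NbrCTD-GWp, -6.80 with NbrCTD and -1.82 with Nbr(wt), where listed isoforms gave -2.17, -10.1 and -4.76.

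Between constructs, NbrCTD-GWp against NbrCTD gave a log2 fold of the sum of 0.20 with the authors' RPM and 0.04 with median of ratios (-0.01 in miRNA RPM). For NbrCTD-GWp against Nbr(wt) it was 0.42 with the authors' RPM and 0.18 with median of ratios (0.36 in miRNA RPM), and for NbrCTD against Nbr(wt) 0.22 and 0.14 (0.37 in miRNA RPM). Of the 123 arms, 21 were lower with NbrCTD-GWp, 19 with NbrCTD and 31 with Nbr(wt). These counts were 38, 38 and 51 at a fold of 1.5, and 14, 16 and 21 with the authors' RPM. They were 12, 12 and 13 with median of ratios, and 12, 10 and 13 with the trimmed mean. With no filter they were 35, 34 and 49, out of 261 arms. With a minimum of 10 reads, which keeps more arms, they were 31, 32 and 46. Scalings change the total that every arm is divided by. The nearest 5 arms under median of ratios shared 5, 5 and 4 with those given for miR-281-1-5p, miR-281-2-5p and miR-281-3p.

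Summing all listed isoforms gave the same values, as the table lists 1 isoform for each mir-281 arm, and recomputing the deposited share from listed rows was not run for that reason. No paired analysis was possible because each group held 1 library. Depth limits the tails of miR-281-1-5p most, with 13 tailed reads with Nbr(wt).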
